A study of Mus musculus with 6 samples.

Results

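Keratin-associated protein genes were followed through the CD45-negative skin cells of wild-type mice and of mice that lack the upstream enhancer of Il2ra (UP_Del), with and without alopecia. The members were selected on their counts: they are the genes whose symbol starts with Krtap and a number and that had at least 5 unique molecular identifiers (UMIs, each standing for 1 captured RNA molecule) summed over the 3 CD45-negative libraries. That rule took 15 of the 57 Krtap genes listed and of 32285 genes in all. Another 23 Krtap genes had 1 to 4 UMIs and 19 had 0. Because the rule used the summed counts, the members' levels are given as descriptions.

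The study set 3 groups side by side: C57BL/6 wild type, UP_Del without alopecia and UP_Del with alopecia. All were untreated adult females of 17 to 18 weeks, and the genotype field of the labels reads C57/BL6 for every library. Shaved whole skin was freed of hypodermis, digested with Liberase, DNase I and trypsin, stained and sorted as live CD45-negative or CD45-positive cells, then captured with a 10x Genomics 5' kit. Each group gave 1 library per sort, so no comparison below has a replicate. Whether UP_Del was homozygous, and how many mice entered a library, is not given in the sources used here.

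Keratin-associated proteins fill the space between the hair keratin filaments of the hardening hair shaft and cross-link them, largely through disulfide bonds. They fall into high glycine-tyrosine, high-sulfur and ultra-high sulfur families, encoded by small genes that lie in clusters. In a growing follicle the early hair keratins such as Krt35 come first, later hair keratins such as Krt31 follow higher in the cortex, and most Krtap genes are switched on late.

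By family, Krtap8-1, Krtap7-1 and Krtap22-2 encode high glycine-tyrosine proteins. Krtap3-2, Krtap3-3, Krtap10-10, Krtap11-1, Krtap13-1, Krtap14, Krtap15 and Krtap24-1 encode high-sulfur proteins, and Krtap9-3 and Krtap17-1 ultra-high sulfur proteins. Krtap28-10 and Krtap28-13 complete the list. In GENCODE vM21 (GRCm38), 8 members lie on chromosome 16, 4 on chromosome 11, 2 on chromosome 1 and 1 on chromosome 10, and 13 have a single exon in every annotated transcript. Krtap8-1 is at chr16:89487379-89487952 (minus strand), Krtap7-1 at chr16:89507703-89508323 (minus), Krtap11-1 at chr16:89570176-89571183 (minus) and Krtap17-1 at chr11:99993234-99993994 (minus).

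Copies and overlaps limit some members. Krtap3-2 and Krtap3-3 were 98.7% identical over 373 aligned bases, Krtap10-10 and Krtap10-4 90.0% over 747, Krtap9-3 and Krtap1-5 86.2% over 436, and Krtap28-10 and Krtap28-13 83.6% over 477. Krtap14 and Krtap15 overlap each other on opposite strands, Krtap24-1 overlaps Gm49688, and Krtap10-10 lies within the span of Tspear. How the counting treated shared or overlapping reads is not given in the sources used here, so counts of these members are uncertain.

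The 250 bases before the start of 4 members are printed because their RNA sat in different cells, described below: Krtap8-1 and Krtap15 in several hair follicle sub-clusters, Krtap11-1 in the hair shaft sub-cluster alone among the Krtap-rich ones, and Krtap17-1 outside them. The sequences are from RefSeq (GRCm38.p6), each on its gene's strand: Krtap8-1 chr16:89487953-89488202 (minus), Krtap11-1 chr16:89571184-89571433 (minus), Krtap15 chr16:88828759-88829008 (plus) and Krtap17-1 chr11:99993995-99994244 (minus). Capitals mark matches on either strand to TTTAT (a core that the hair factor Hoxc13 is known to bind), CTTTGA and CTTTGT (Lef1 and Tcf sites) and TATAAA (the TATA box).
Krtap8-1: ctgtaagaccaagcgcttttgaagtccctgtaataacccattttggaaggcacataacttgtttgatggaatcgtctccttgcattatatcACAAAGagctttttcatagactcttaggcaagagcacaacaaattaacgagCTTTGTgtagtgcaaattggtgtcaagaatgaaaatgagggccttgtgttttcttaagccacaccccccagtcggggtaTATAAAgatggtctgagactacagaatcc
Krtap11-1: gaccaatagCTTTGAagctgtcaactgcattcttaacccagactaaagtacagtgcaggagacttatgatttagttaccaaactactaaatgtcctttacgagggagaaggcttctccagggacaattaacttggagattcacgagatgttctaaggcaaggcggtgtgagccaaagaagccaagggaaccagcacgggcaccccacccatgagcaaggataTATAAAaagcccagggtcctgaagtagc
Krtap15: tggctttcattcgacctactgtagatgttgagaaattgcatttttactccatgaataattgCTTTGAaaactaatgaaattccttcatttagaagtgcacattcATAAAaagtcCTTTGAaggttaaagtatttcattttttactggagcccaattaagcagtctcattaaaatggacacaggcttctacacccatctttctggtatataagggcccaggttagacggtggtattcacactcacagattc
Krtap17-1: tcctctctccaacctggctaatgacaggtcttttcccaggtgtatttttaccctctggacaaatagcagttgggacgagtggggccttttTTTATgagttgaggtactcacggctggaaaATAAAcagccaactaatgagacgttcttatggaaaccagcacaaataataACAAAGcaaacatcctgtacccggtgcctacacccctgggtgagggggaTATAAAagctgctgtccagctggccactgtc

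TATAAA, which overlaps ATAAA, the reverse of TTTAT, lay 29 bases before the start of Krtap8-1, 28 before Krtap11-1 and 31 before Krtap17-1, while the Krtap15 window had none. Over 300 bases around the start (250 before to 50 after), TATAAA was in 9 of the 12 member promoters found in RefSeq and in 42 of 51 Krtap promoters, against 13.6% of 32851 promoters of all genes. TTTAT was in 11 of the 12 and 46 of 51, against 40.0%. CTTTGA was in 6 of the 12 (16.0% of all promoters) and CTTTGT in 4 of the 12 (18.7%). These are matches of letters only. Krtap7-1, Krtap10-10 and Krtap28-10 had no entry matched.

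The 3 libraries differed widely in size and in cells lost. After removal of low-quality barcodes and likely doublets, 3293 wild-type, 14447 no-alopecia and 4817 alopecia cells remained, with median depths of 5005 to 5649 UMIs. The filters removed 28.0% of wild-type, 13.8% of no-alopecia and 32.4% of alopecia barcodes, and 22.3%, 6.18% and 27.4% of barcodes were over 10% mitochondrial UMIs. Cells were clustered without any Krtap gene and without Il2ra. One cluster of hair follicle lineage cells (325 wild type, 283 no alopecia, 432 alopecia) was clustered again, and 2 of its sub-clusters, 3 and 12, had hair shaft genes as their best marker set and were taken as hair shaft-like cells. Sub-cluster 12 only just met the required marker score of 0.8, and its leading genes were Chn2, Fap and Mt4. Pairs of CD45-negative libraries shared 48 to 149 cell barcodes.

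Hair shaft-like cells made up 1.31% of wild-type kept cells (43 cells, exact 95% binomial interval 0.947 to 1.75%), 0.132% of no-alopecia cells (19 cells, 0.0792 to 0.205%) and 2.47% of alopecia cells (119 cells, 2.05 to 2.95%). These shares depend on the sort and the filters. All intervals here and below cover counting error only, not differences between mice.

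Krtap8-1 supplied most of the counts. It had 484 UMIs in the wild-type, 220 in the no-alopecia and 1530 in the alopecia library over all barcodes. Krtap17-1 had 45, 326 and 64 in the same order, most of them in the no-alopecia library. Krtap7-1 had 117, 12 and 127, and its wild-type and alopecia counts were close.

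Krtap15 had 32, 15 and 184 UMIs, and Krtap11-1 had 20, 14 and 184. Both were highest in the alopecia library. Krtap13-1 had 12, 35 and 28, Krtap3-3 had 27, 5 and 26, and Krtap3-2 had 6, 13 and 14. These 8 members had at least 20 UMIs.

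The other 7 members had 6 to 18 UMIs. Krtap14 had 3, 0 and 15, and Krtap9-3 had 3, 1 and 7. Krtap28-10 had 15, 0 and 1, Krtap28-13 had 7, 2 and 0, and Krtap22-2 had 5, 0 and 8. At the threshold, Krtap24-1 (1, 5 and 1 UMIs) and Krtap10-10 (2, 4 and 0) were the members just inside, and Krtap16-1 and Krtap26-1, with 4 UMIs each, were just outside. Krtap19-4 and Krtap4-1 followed with 3. A UMI marks a transcript's 5' end, so counts were not divided by length.

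**Figure D1:**
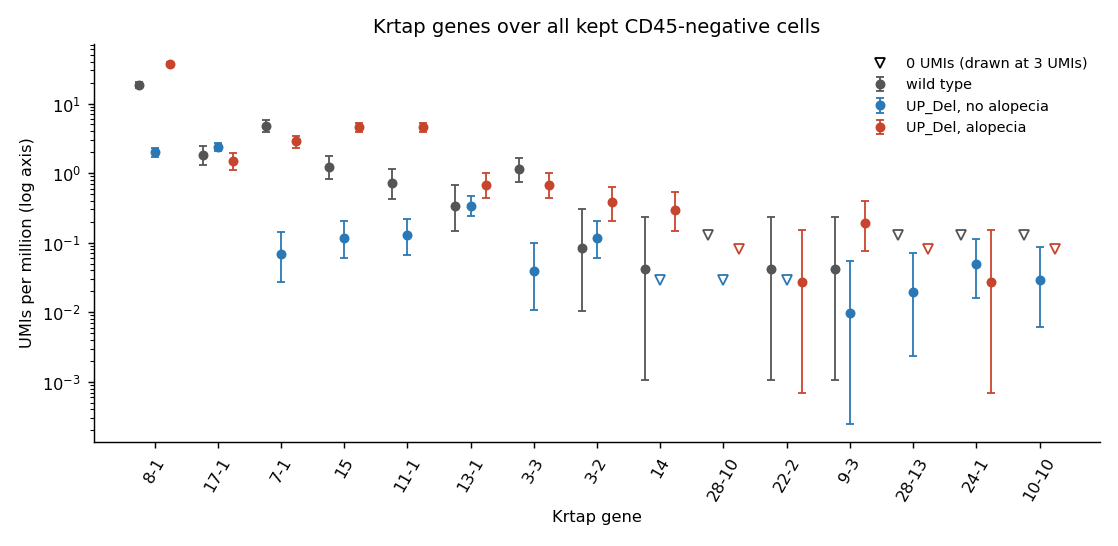
Counts per total of 1000000 UMIs (CPM) of each member over all kept CD45-negative cells (log axis), 1 point per library with its exact 95% Poisson interval; open triangles mark 0 UMIs, drawn at the level of 3 UMIs. Krtap8-1, Krtap7-1, Krtap15, Krtap11-1 and Krtap3-3 are lowest in the no-alopecia library, and Krtap17-1 runs from 1.49 in alopecia to 2.35 in no alopecia.

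Within kept cells the members' RNA was gathered in a small part of the follicle lineage. Levels are given as CPM, the UMIs of a gene in a group of cells scaled to 1000000 UMIs of that group. Sub-cluster 3, the larger hair shaft-like group (145 cells over the 3 libraries, led by Krt35, Selenbp1, Dapl1 and Dsg4), held 53.2% of the 3176 member UMIs. Sub-cluster 8 (59 cells, led by Id1, Fos and Odc1) held 13.6% and sub-cluster 11 (45 cells, led by Gpnmb, Kitl and Prdm1) held 12.2%. Neither of these 2 reached the marker score for a name, and both are left unnamed. Cluster 18, with bulge and outer root sheath markers such as Lhx2, Postn and Lgr5 (1354 cells), held 9.57%, and all remaining follicle lineage cells except the inner root sheath-like sub-cluster held 6.77%. The smaller hair shaft-like sub-cluster 12 (36 cells) held 5 UMIs.

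The 4 members most abundant in hair shaft cells were not placed alike. Krtap7-1 had 210 of its 224 kept UMIs (93.8%) and Krtap11-1 172 of its 199 (86.4%) in sub-cluster 3. Krtap11-1 had 0 UMIs in sub-clusters 8 and 11. Krtap8-1 was spread over sub-cluster 3 (541 CPM), sub-cluster 8 (358) and sub-cluster 11 (704), with 0 UMIs in sub-cluster 12. Krtap15 was pooled at 55.4, 15.6 and 115 CPM, but 50 of its 53 UMIs in sub-cluster 11 came from the alopecia library. Sub-cluster 11 was highest in alopecia alone (68.2, 22.4 and 207), while wild type had 24.6, 20.1 and 12.5 (2 UMIs) and no alopecia 49.5, 0 and 17.4 (1 UMI). Sub-cluster 11 had little Krt35, at 45.7 CPM against 6915 in sub-cluster 3, so there Krtap8-1 and Krtap15 came with almost no early hair keratin.

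Krtap8-1 in sub-cluster 11 was at 162 CPM in the 12 wild-type cells, 538 in the 6 no-alopecia cells and 1104 in the 27 alopecia cells. All 31 no-alopecia UMIs came from 1 cell. In sub-cluster 8 it was at 444, 334 and 269 CPM in 21, 21 and 17 cells, the opposite order. With so few cells, 1 cell can set a value.

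**Figure D2:**
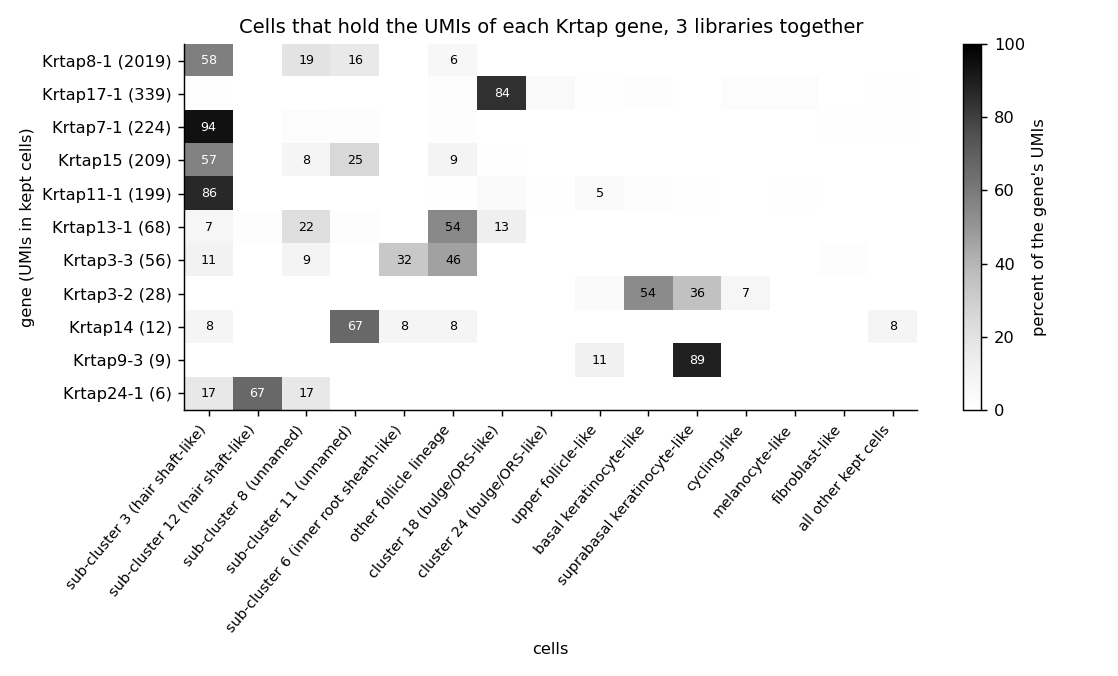
Percent of each member's UMIs (rows, with the number of UMIs in kept cells) that fell in each group of cells (columns), the 3 libraries together; the 11 members with at least 6 such UMIs are shown, and values of 5% or more are written in. Krtap7-1 and Krtap11-1 sit almost wholly in sub-cluster 3, Krtap8-1 and Krtap15 in sub-clusters 3, 8 and 11, Krtap17-1 in cluster 18 and Krtap3-2 in epidermal cells.

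Krtap17-1 was placed apart from the other abundant members. Of its 339 kept UMIs, 285 (84.1%) were in cluster 18 and 3, all in 1 wild-type cell, in hair shaft-like cells. It was seen in 112 of the 1354 cells of cluster 18, with up to 26 UMIs in a cell. In cluster 18 it was at 23.8 CPM in wild type, 34.7 in no alopecia and 36.8 in alopecia. The ratio of alopecia to no alopecia there was 1.06 (exact 95% interval 0.760 to 1.46), to wild type 1.55 (0.909 to 2.72), and of no alopecia to wild type 1.46 (0.930 to 2.40), so the 3 intervals all include 1.

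Cells of cluster 18 with a Krtap17-1 UMI had Hoxc13 at 108 CPM and Krt75 at 2.26, against 50.1 and 14.1 in the cells without one. Krt15, a bulge keratin, was at 5360 and 8800, and Lgr5 at 364 and 258. The other bulge and outer root sheath markers were lower: Cd34 at 100 and 241, Fst at 150 and 328, and Sox9 at 325 and 463. Postn was at 743 and 945 and Lhx2 at 366 and 375, so among these markers Lgr5 alone was higher. The cells with a Krtap17-1 UMI were also deeper, with a median of 6750 against 5072 UMIs, and most came from the no-alopecia library (85, against 8 and 19). In that library Hoxc13 was at 118 against 48.1 CPM and Krt15 at 4297 against 8463, while in the alopecia library Hoxc13 was at 52.5 against 63.4 and Krt15 at 9551 against 8122. In wild type Hoxc13 was at 144, from 8 UMIs, against 44.7. Krt75 was lower in cells with a Krtap17-1 UMI in each library, at 0 against 40.0 in alopecia, but those cells had 0 to 2 Krt75 UMIs per library. Fst was lower too in each library, at 180 against 189 in wild type, 131 against 343 in no alopecia and 223 against 355 in alopecia. The pooled differences in Hoxc13, Krt15, Lgr5, Cd34, Sox9, Postn and Lhx2 were not seen in the alopecia library, where Lgr5 was at 328 against 361.

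**Figure D3:**
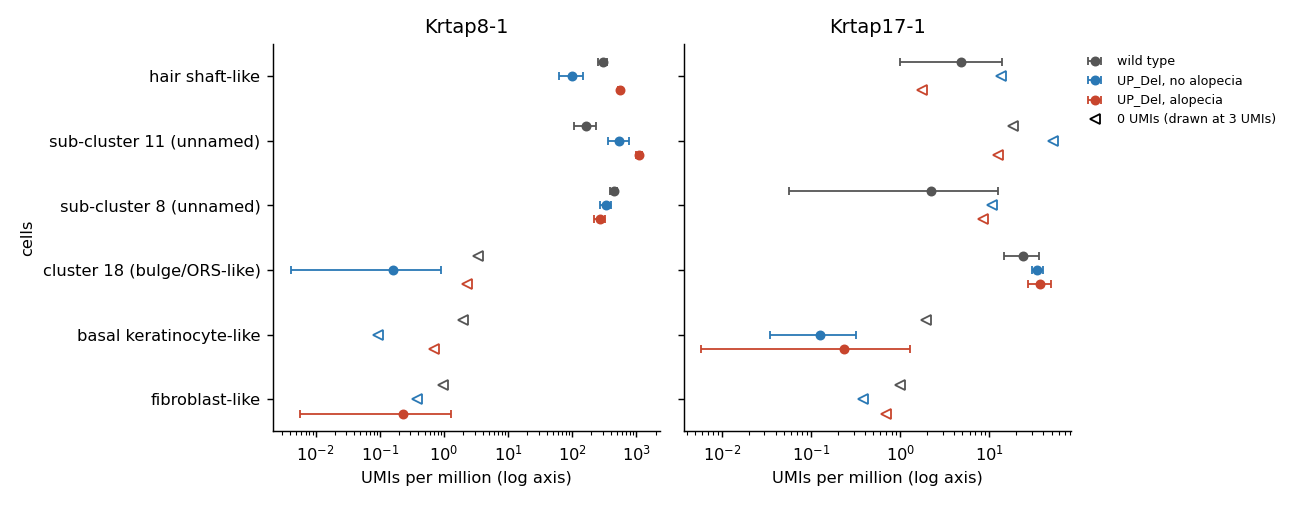
CPM of Krtap8-1 (left) and Krtap17-1 (right) in 6 groups of cells (log axis), 1 point per library with its exact 95% Poisson interval; open triangles mark 0 UMIs, drawn at the level of 3 UMIs. Krtap8-1 is high in hair shaft-like cells and sub-clusters 8 and 11, and Krtap17-1 in cluster 18, where its 3 libraries lie between 23.8 and 36.8.

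The less abundant members had places of their own. Krtap13-1 had 15 of 68 UMIs in sub-cluster 8 and 37 in other lineage cells, and 9 in a single cell of cluster 18. Krtap3-3 had 18 of 56 UMIs in the inner root sheath-like sub-cluster 6, 11 of them in 1 cell, and 26 in other lineage cells. Its near-copy Krtap3-2 had 0 of 28 UMIs in the lineage: 15 were in basal keratinocyte-like, 10 in suprabasal keratinocyte-like, 2 in cycling and 1 in upper follicle-like cells. Krtap9-3 had 8 of 9 UMIs in suprabasal cells, 7 of them in 1 cell. Krtap14, which overlaps Krtap15, had 8 of 12 UMIs in sub-cluster 11, and Krtap24-1 had 4 of 6 in 1 cell of sub-cluster 12.

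Very few cells carried the counts. A member UMI was seen in 72 wild-type (2.19%), 175 no-alopecia (1.21%) and 153 alopecia kept cells (3.18%), and in 36, 109 and 56 of these it was exactly 1 UMI. Cells with at least 10 member UMIs numbered 10, 8 and 31 and held 80.3%, 37.5% and 83.4% of their library's member UMIs. The single highest cell held 33.9% in wild type and 35.3% in alopecia.

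Both of those cells had early and late hair keratins. The wild-type cell, with 48646 UMIs in all, had 97 UMIs of Krtap8-1, 105 of Krtap7-1, 13 of Krtap15 and 13 of Krtap11-1, beside 601 of Krt35, 163 of Krt31 and 410 of Hspb1. The alopecia cell, with 42738 UMIs, had 559 of Krtap8-1, 48 of Krtap7-1 and 85 of Krtap11-1, beside 255 of Krt35 and 366 of Krt31. A smaller alopecia cell of 963 UMIs had 87 member UMIs, 9.03% of its RNA, with 14 Krt31 and 0 Krt35 UMIs. The highest no-alopecia cell lay in sub-cluster 8, with 43 Krtap8-1, 14 Padi3 and 0 Krt35 UMIs. The second highest wild-type cell was alike, with 124 Krtap8-1, 13 Padi3 and 0 Krt35 UMIs.

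**Figure D4:**
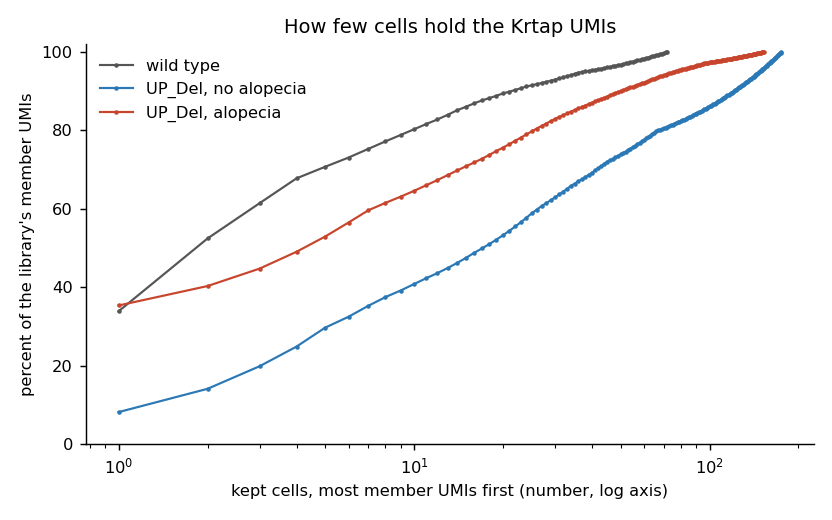
Cumulative percent of each library's member UMIs (vertical axis) against the number of kept cells, ordered from most member UMIs (log axis). The first 5 cells hold 70.7% in wild type, 29.7% in no alopecia and 52.9% in alopecia.

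An order along the hair shaft was read from keratins alone. Hair shaft-like cells with at least 10 UMIs of early (Krt35) or late hair keratins were ranked from 0 to 1 by the late share. Each member was given the mean rank of its RNA. In that mean a cell counted by the member's share of the cell's UMIs, so a shallow cell could weigh most. In the 93 alopecia cells, Krtap15 came first at 0.65, then Krtap11-1 at 0.88, Krtap8-1 at 0.93 and Krtap7-1 at 0.95, against 0.47 for Hoxc13. Without the cell of most UMIs of each gene the values were 0.51, 0.85, 0.92 and 0.95. This left in a cell of only 963 UMIs at rank 1.0, with 71 Krtap8-1, 11 Krtap7-1, 5 Krtap11-1 and 0 Krtap15 UMIs. Being so shallow, that cell weighed heavily on the mean ranks of Krtap8-1, Krtap7-1 and Krtap11-1, also among all 93 cells. The gap between Krtap15 and these members may rest on that cell, and the order without it was not computed. The median rank of cells with a UMI was 0.59 for Krtap15, 0.65 for Krtap11-1, 0.55 for Krtap8-1 and 0.87 for Krtap7-1. By these medians Krtap8-1, not Krtap15, came first. The mean ranks of Krtap11-1, Krtap8-1 and Krtap7-1 are close and carry no error.

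In 33 wild-type cells, Krtap8-1 was at 0.62 and Krtap7-1 at 0.96, but Krtap7-1 came from 2 cells and Krtap8-1 moved to 0.44 without its highest cell. The wild-type order therefore rests on 1 cell. The no-alopecia library had 15 such cells and was not ranked.

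By level, Krtap8-1 was at 238 CPM in the 31 alopecia cells of lowest late share, 144 in the middle 31 and 1813 in the highest 31. Krtap11-1 was at 43.3, 23.7 and 302, and Krtap7-1 at 36.7, 3.65 and 189. All 3 were highest in the last cells, but 1 cell there held 559 of the Krtap8-1, 85 of the Krtap11-1 and 48 of the Krtap7-1 UMIs. Without it the last cells were at 454, 98.8 and 76.2. Of the UMIs left there, the cell of 963 UMIs held 71 of 161 for Krtap8-1, 5 of 35 for Krtap11-1 and 11 of 27 for Krtap7-1. Levels without both cells were not computed, so a late rise of these members may rest on them. Krtap15 was at 35.0, 43.8 and 133, and without the cell with 44 of its UMIs the last value was 24.4, the lowest of the 3. Krt35 (9145, 7204 and 5243) and Krt31 (0, 20.1 and 980) define the axis, so their order is set by it. Ranked instead by the first principal component of the same cells, Krtap8-1 was at 0.53, Krtap7-1 at 0.49, Krtap11-1 at 0.60 and Krtap15 at 0.83, so the order of Krtap15 and the others was turned.

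**Figure D5:**
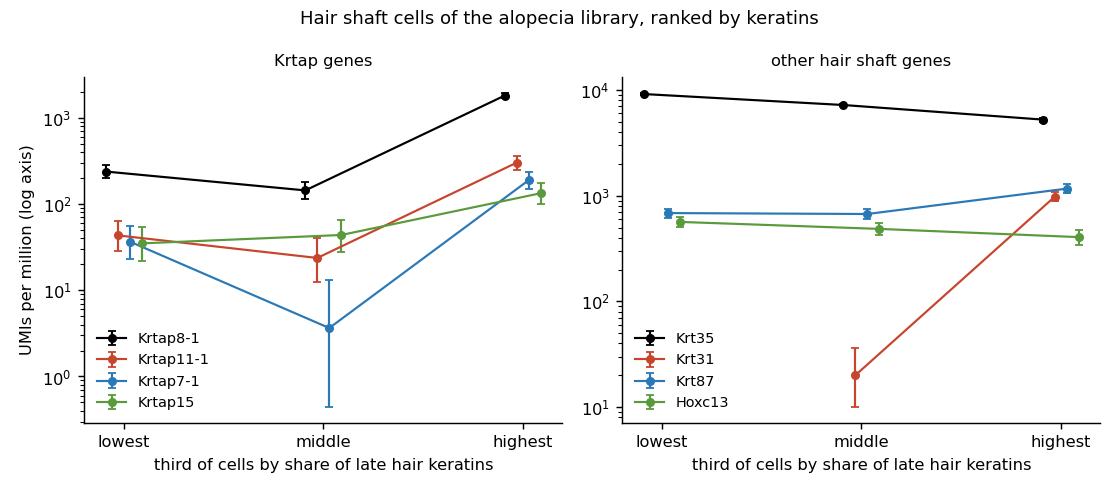
CPM (log axis) in hair shaft-like cells of the alopecia library, split by their share of late hair keratins into 31 lowest, 31 middle and 31 highest cells, with exact 95% Poisson intervals; Krt31 has 0 UMIs in the lowest cells and no point there. Krtap8-1, Krtap11-1 and Krtap7-1 are highest in the last cells, where without 1 cell they are at 454, 98.8 and 76.2. A cell of 963 UMIs then still holds 71 of 161 Krtap8-1, 5 of 35 Krtap11-1 and 11 of 27 Krtap7-1 UMIs there. Levels without both cells were not computed, so a late rise may rest on them. The last value of Krtap15 is 24.4 without 1 cell. Krt35 and Krt31 define the axis.

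The same 3 members went together from cell to cell. Across the 119 alopecia hair shaft-like cells, which share a library and its free RNA, Krtap8-1 and Krtap7-1 had a Pearson correlation of 0.854 on the log scale (Spearman 0.673), and all 14 cells with Krtap7-1 had Krtap8-1. Krtap7-1 and Krtap11-1 were at 0.813 (both in 10 cells of 14 each), and Krtap8-1 and Krtap11-1 at 0.669 (both in 12 cells). Without the 2 cells of most UMIs these became 0.771, 0.504 and 0.359. Krtap15 was at 0.189 to 0.221 with these 3 (Spearman 0.298 to 0.419), and at 0.193 to 0.258 without the 2 cells, so the gap to the last of the 3 pairs was then small.

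Against the summed cortex keratins the correlations were 0.620 for Krtap8-1, 0.656 for Krtap7-1, 0.677 for Krtap11-1 and 0.348 for Krtap15. Against a cell's depth they were -0.02, -0.12, 0.05 and 0.25, and the Spearman values were 0.24, 0.11, 0.30 and 0.29. In the 43 wild-type cells Krtap8-1 and Krtap7-1 were at 0.561, with Krtap7-1 in 2 cells, and Krtap8-1 was at 0.469 with depth.

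Of 2009 other genes with at least 50 UMIs in the hair shaft-like cells of both libraries, those closest to the summed member level were Hspb1, a small heat shock protein (mean correlation over wild type and alopecia 0.656), and the late hair keratin Krt31 (0.617). The hair keratin Krt36 (0.528), the retinol transporter Stra6 (0.522), the hair keratin Krt83 (0.517), Tob1 (0.509), the peptidase Blmh (0.504), Hagh (0.488), the arginine synthesis enzyme Ass1 (0.467) and Fam25c (0.461) followed. The cell of each library with most member UMIs weighed on this list. In wild type it held 163 of 163 Krt31, 410 of 456 Hspb1 and 36 of 51 Krt36 UMIs. Without it the wild-type correlation of Hspb1 fell from 0.750 to 0.553, of Krt36 from 0.632 to 0.396 and of Fam25c from 0.324 to 0.0656, and Krt31 had no wild-type UMI left. In alopecia Hspb1 was at 0.562 with and 0.522 without that library's top cell, and Krt31, with 366 of 400 UMIs in it, at 0.623 and 0.559.

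Outside the follicle lineage the pooled mix of members differed from that in hair shaft-like cells. Fibroblast-like cells, which should lack these genes, had 3 member UMIs in 4059 cells. In the alopecia library, Krtap8-1 was 72.5% of member UMIs in hair shaft-like cells and 9.38% outside the lineage, where Krtap17-1 was 55.2% and Krtap3-2 14.6%. In the no-alopecia library Krtap17-1 was 84.8% outside, and in wild type 75.0%, against 0 and 0.915% in hair shaft-like cells. Of 425 UMIs outside the lineage, 327 were Krtap17-1, 28 Krtap3-2, 25 Krtap11-1 and 15 Krtap8-1. Most of these Krtap17-1 UMIs lay in the cluster with bulge and outer root sheath markers, described above. The pooled mix therefore does not describe the other cells outside the lineage. Krtap11-1 was the 1 hair shaft member spread thinly outside, with 10 upper follicle-like cells of exactly 1 UMI each. Whether free RNA supplied these single UMIs, or other member UMIs outside the lineage, was not tested.

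Shares of cells with a member UMI are given with and without thinning. In the alopecia library 33.6% of hair shaft-like cells (median 13007 UMIs) and 70.4% of sub-cluster 11 (median 7463) had a member UMI, against 0.189% of fibroblast-like cells (median 3703). When each cell was thinned to 1000 UMIs the shares were 8.55%, 48.1% and 0 of 1005 cells, which allows up to 0.299%. Fibroblast-like cells were shallower, and 2, 0 and 54 cells under 1000 UMIs were left out. Member UMIs outside hair shaft-like cells were 51.7% (47.9 to 55.5%) in wild type, 92.9% (90.5 to 95.0%) in no alopecia and 32.2% (30.1 to 34.3%) in alopecia.

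Some members were seen mostly in barcodes that failed the filter. All 16 Krtap28-10 UMIs, 11 of 13 Krtap22-2 and 7 of 9 Krtap28-13 UMIs were in such barcodes, each over the mitochondrial limit. Failing barcodes with at least 5 Krtap UMIs numbered 4 in wild type, 0 in no alopecia and 10 in alopecia, and had 65 to 530 genes each with 31.3 to 86.6% mitochondrial UMIs. Removal of likely doublets took 85 of the 435 Krtap17-1 UMIs and 34 of the 2234 Krtap8-1 UMIs.

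Over all kept cells, the summed level was 28.8 CPM in wild type, 5.26 in no alopecia and 53.2 in alopecia. It was highest with alopecia and lowest in UP_Del skin without it. Alopecia was 10.1-fold above no alopecia (exact 95% interval 9.19 to 11.1) and 1.84-fold above wild type (1.69 to 2.02), and no alopecia was 0.182 of wild type (0.163 to 0.205). In such sums, fewer hair shaft cells and less RNA per cell cannot be told apart, and the libraries' cell loss and hair shaft shares, given above, moved with the level.

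Against no alopecia, the alopecia library was at least 1.5-fold higher in 7 of the 8 members with 20 or more UMIs in the pair, and 1 was lower. Of 17882 genes with such counts, 24.9% were higher and 5.65% lower. The members' median difference was 4.18 on the log2 scale, against 0.22 for all those genes. Krtap7-1 was 41.8-fold higher (2.85 against 0.0683 CPM, interval 19.6 to 106), Krtap15 39.0-fold, Krtap11-1 36.2-fold, Krtap8-1 18.8-fold (16.2 to 21.9) and Krtap3-3 17.4-fold (6.01 to 68.8). Krtap3-2, at 3.25-fold, and Krtap13-1, at 1.99-fold (1.14 to 3.42), differed least. Krtap17-1 was the one lower, at 0.635 (0.465 to 0.855), and in cluster 18 alone its ratio was 1.06, as given above. That cluster held 1052 of the no-alopecia and 166 of the alopecia cells.

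Against wild type, alopecia was at least 1.5-fold higher for Krtap8-1 (2.01-fold), Krtap15 (3.71), Krtap11-1 (6.36) and Krtap13-1 (2.00, interval 0.874 to 5.13), and lower for Krtap7-1 (0.600) and Krtap3-3 (0.592, interval 0.330 to 1.06), so 4 and 2 of 7 members, while 4.62% and 5.39% of 16768 genes were. The members' median was 1.00, against -0.01. The lower Krtap7-1 rested on 1 wild-type cell with 105 of 112 UMIs (93.8%), and without the cell of each library with most Krtap7-1 UMIs, Krtap7-1 was higher in alopecia, by 2.38 on the log2 scale.

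The no-alopecia library was below wild type in 5 of 7 members (Krtap8-1 at 0.107 of wild type, Krtap7-1 at 0.0144, Krtap15 at 0.0951, Krtap11-1 at 0.176 and Krtap3-3 at 0.0340) and above in 0, where 26.3% of 17626 genes were lower and 6.11% higher. The median was -3.22, against -0.23 for all genes. Krtap13-1 (1.01) and Krtap17-1 (1.29, interval 0.928 to 1.83) did not pass 1.5-fold. This comparison shares the wild-type library with the one before and the no-alopecia library with the first. Without the cell of each library with most member UMIs of a gene, Krtap8-1 and Krtap15 were lower and Krtap17-1 higher among members that still had 20 or more UMIs.

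Within hair shaft-like cells the contrast was smaller. The summed level was 526 CPM in the 43 wild-type cells, 171 in the 19 no-alopecia cells and 775 in the 119 alopecia cells. Alopecia was 4.53-fold above no alopecia (3.28 to 6.43) and 1.47-fold above wild type (1.30 to 1.67), and no alopecia was at 0.326 of wild type (0.226 to 0.456). The no-alopecia value rests on 38 UMIs, 27 of them in 1 cell. Without the highest cell of each library the levels were 170.5, 53.7 and 381. Called by hair keratins at 1% or more of a cell's UMIs, in place of clusters, alopecia was below wild type, by -0.36 on the log2 scale. That call took far fewer wild-type and alopecia cells, as their shares in the closing section show, so 1 cell can weigh more there.

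By member in hair shaft-like cells, Krtap8-1 was at 298, 99.1 and 562 CPM in wild type, no alopecia and alopecia, Krtap7-1 at 170.0, 18.0 and 58.4, and Krtap15 at 22.5, 36.0 and 57.2. Krtap11-1 was at 20.8, 0 and 92.8, so alopecia was at least 6.87-fold above no alopecia (3 UMIs taken as the floor). All 4 measured members were at least 1.5-fold higher in alopecia than in no alopecia (20.2% of 8041 genes higher, 11.2% lower), though the interval for Krtap15 ran from 0.774 to 3.78. Against wild type 3 of 4 were higher and Krtap7-1 lower (9.72% and 8.71% of 8510 genes). In wild type 1 cell held 105 of the 106 Krtap7-1 UMIs and all 13 Krtap11-1 UMIs. Without the top Krtap7-1 cell of each library, Krtap7-1 was at 1.74 CPM in wild type and 31.1 in alopecia, so its direction turned. Between no alopecia and wild type 1 of 3, Krtap15, was higher and 2 lower (11.2% and 20.2% of 5800 genes). Krtap15 turned lower there, by -0.82, in cells called by hair keratins and by -1.07 over the whole follicle lineage.

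Hair keratins and other follicle genes were counted the same way, from lists that overlap in no gene with the members. Over all kept cells, Krt35 was 13.3-fold higher in alopecia than in no alopecia and 2.22-fold higher than in wild type. Of the type I hair keratins 4 of 5 measured, and of the type II 4 of 4, were at least 1.5-fold higher in alopecia than in no alopecia, with medians of 3.73 and 4.36 on the log2 scale. So were 6 of 6 inner root sheath genes (2.72), 10 of 14 other hair shaft structure genes (2.03) and 10 of 21 matrix and shaft regulators (0.53), with 1 regulator, Bmp2, lower, beside 24.9% of all genes higher.

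Against wild type the counts higher in alopecia were 5 of 5, 2 of 4, 2 of 6, 6 of 14 and 0 of 21, with Shh lower, beside 4.62% of all genes. In no alopecia, 4 of 5 type I keratins were lower than in wild type and 1, Krt32, a cuticle keratin, was higher, while 0 of the members were higher. The counts lower were 4 of 4 type II keratins, 6 of 6 inner root sheath genes, 6 of 13 structure genes and 11 of 21 regulators, beside 26.3% of all genes.

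Within hair shaft-like cells, Krt35 was at 6774 CPM in alopecia, 9531 in no alopecia and 5114 in wild type, and Hoxc13, a regulator of hair keratin genes, at 478, 487 and 452. Krt31 was at 233 in alopecia, 0 in no alopecia and 261 in wild type. S100a3, a cuticle calcium-binding protein, was at 461, 2294 and 423, and so went opposite to the summed members in the no-alopecia cells.

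By list, alopecia was higher than no alopecia in these cells for 2 of 4 type I and 2 of 4 type II keratins, 1 of 12 structure genes (3 lower) and 1 of 16 regulators (0 lower). Against wild type it was higher for 1 of 4, 1 of 4, 4 of 12 and 1 of 16 (1 regulator lower). No alopecia against wild type had 1 higher and 2 lower of 4 type I keratins, 2 lower of 4 type II keratins and 5 lower of 13 regulators. Structure genes were 5 higher (Selenbp1, Tgm3, S100a3, Lgals7 and Ly6g6d) and 1 lower (Padi3) of 10, where over all kept cells 0 were higher. The shares of all genes past 1.5-fold in these cells are given above with the members.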

How the data were processed

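The files are deposited filtered UMI count matrices, made by the authors with Cell Ranger 7.1.0 on mm10, per the submitters' processing notes; the gene annotation is not given in the sources used here. A barcode was kept if it had 500 or more UMIs from 300 or more genes and no more than 10% mitochondrial UMIs, and the likeliest doublets (0.4% per 1000 barcodes) were removed. Cells of the 3 CD45-negative libraries were scaled to 10000 UMIs, logged and clustered together (2000 variable genes without Krtap genes and Il2ra, 30 components, 15 neighbours, Leiden resolution 1.0) with scanpy 1.11.5. Clusters were named from fixed marker lists (score of at least 0.8). Sub-clustering of the follicle lineage was chosen after seeing the data. Krt85 was not analysed here.

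With 1 library per group there is no test. Levels are summed counts with exact 95% Poisson intervals, ratios have exact conditional binomial intervals and shares exact Clopper-Pearson intervals (scipy 1.17.1). Folds use members with at least 20 UMIs in the pair and a floor of 3 UMIs. The scripts were tested on simulated data. The 32285 gene rows were matched by ID to GENCODE vM21 (99.6%). The members and lists were chosen with earlier results of these data known. All members are accounted for, and named with values were the 12 members with most UMIs, each family's most abundant member, those at the threshold, the extremes of the order and the 10 closest other genes; named genes of the other lists were chosen after their values were seen where that rule did not take them. Alternatives varied the cell filter, doublets, clustering, the calling of hair shaft cells, scaling, the count minimum and the axis.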

Additional observations from a re-analysis of the deposited data

Results flagged for a closer look

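Barcodes that failed the cell filter are outside the comparisons above, and in both sorts the alopecia library had more member UMIs per total there than the wild-type one. In the CD45-negative alopecia library they were at 74.1 CPM (193 UMIs, exact 95% interval 64.0 to 85.3), against 54.8 in wild type, a ratio of 1.35 (1.04 to 1.77). In the CD45-positive alopecia library they were at 237 CPM (109 UMIs, interval 195 to 286), against 119.7 in wild type from 32 UMIs, a ratio of 1.98 (1.33 to 3.04). Single barcodes weighed on the CD45-positive values: 1 failing wild-type barcode held 28 of the 32 member UMIs and 1 failing alopecia barcode 57 of the 109. Without the richest failing barcode of each library, a choice made after seeing the data, 52 alopecia and 4 wild-type member UMIs were left in the CD45-positive sort, a ratio of 7.56 (2.78 to 28.8), and the CD45-negative ratio was 1.49 (1.12 to 2.00). CD45-positive barcodes that passed the filter went the other way, at 1.59 CPM in alopecia against 4.17 in wild type (ratio 0.382, 0.288 to 0.503). Most of the 159 wild-type member UMIs there were Krtap8-1 UMIs of 1 barcode, described under the other observations. The ratio without that barcode was not computed, so the direction may rest on it. Each ratio compares 1 library with 1 library.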

How the results depend on the processing

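With 1 library per group nothing here has a replicate, and depth limits the small members: 7 of 15 had under 20 UMIs. No paired analysis was possible because each group has 1 library per sort. Of the summed levels, shares, counts and orders, 136 values under an alternative stayed close to the reported one and 58 moved; of single members, 122 stayed, 20 moved and 4 turned direction. The causes were not tested beyond what each alternative leaves out. Values without the top cell or barcode, without Krtap17-1 and for the whole follicle lineage were chosen after seeing the data.

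Summed levels are log2 ratios. Over all kept cells, alopecia against no alopecia (3.34) was 2.27 without Krtap8-1, 4.15 without Krtap17-1 and 2.83 without the top cell of each library; alopecia against wild type (0.88) was 2.13 as a mean over cells and 0.63 without Krtap8-1; no alopecia against wild type (-2.45) was -1.24 as a mean over cells, -1.65 without Krtap8-1, -3.22 without Krtap17-1 and -1.98 without the top cells. In hair shaft-like cells, alopecia against no alopecia (2.18) was 2.95 in cells called by hair keratins, 3.28 as a mean over cells and 2.82 without the top cells. Alopecia against wild type (0.56) was -0.36 in cells called by hair keratins, 1.14 over the lineage, 2.41 as a mean over cells and 1.16 without the top cells. No alopecia against wild type (-1.62) was -3.31 in cells called by hair keratins, -1.06 over the lineage and -0.87 as a mean over cells.

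The wild-type hair shaft share was 1.86% at 5% mitochondrial UMIs, 0.759% at resolution 2.0 and 0.152% by hair keratins; the no-alopecia share was 0.0692% by hair keratins; the alopecia share was 3.01% over all barcodes, 1.52% at resolution 2.0 and 0.519% by hair keratins. The share outside was 55.7% in wild type by hair keratins and 7.66% outside the lineage, 51.4% in no alopecia outside the lineage, and in alopecia 36.4% at resolution 2.0, 41.2% by hair keratins and 4.90% outside the lineage.

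Counts of members past 1.5-fold over all kept cells moved as follows. Alopecia was lower than no alopecia in 2 with no count minimum. Against wild type, alopecia was higher in 7 with no minimum and lower in 1 over all barcodes and 0 without the top cells. No alopecia was lower than wild type in 2 with a minimum of 50 and in 2 without the top cells, and higher in 1 without doublet removal and in 1 without the top cells. In hair shaft-like cells alopecia was lower than no alopecia in 1 with no minimum, higher than wild type in 1 by hair keratins and lower in 0 without the top cells. No alopecia was higher than wild type in 2 with no minimum and in 0 with a minimum of 50, over all barcodes, at 5% mitochondrial UMIs, by hair keratins and without the top cells, and lower in 1 without the top cells.

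Mean ranks in alopecia by the first principal component were 0.60 for Krtap11-1, 0.83 for Krtap15, 0.49 for Krtap7-1 and 0.53 for Krtap8-1. Krtap15 was at 0.87 by hair keratin share and 0.51 without its top cell, and wild-type Krtap8-1 at 0.90 and 0.44. Directions turned for Krtap7-1 in alopecia against wild type without the top cell (2.38 over all kept cells, 4.16 in hair shaft-like cells) and for Krtap15 in no alopecia against wild type in hair shaft-like cells (-0.82 by hair keratins, -1.07 over the lineage).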

Other observations

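The CD45-positive sort also held Krtap RNA. Its libraries had 304 Krtap UMIs of 40 genes in wild type, 19 of 5 genes in no alopecia and 238 of 30 genes in alopecia. A few barcodes gave most of them. A wild-type barcode that passed the filter had 95 Krtap UMIs of 27 different genes among 3519 UMIs, with 0 Krt35 UMIs. A failing wild-type barcode of 534 UMIs had 65 of 24 genes, led by Krtap22-2, and a failing alopecia barcode of 1058 UMIs had 94 of 14 genes, led by Krtap17-1. In the CD45-negative libraries the most Krtap genes in 1 barcode were 5 among those passing and 11 among those failing the filter. Another wild-type CD45-positive barcode that passed had 98 UMIs of a single Krtap gene, Krtap8-1.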
